A study of Mus musculus with 8 samples.

Results

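Control C2C12 cells were compared with control primary myoblasts, using only the samples that received a non-targeting siRNA. These are 4 of the 8 samples of a study of the cytoskeletal protein Septin9 in mouse muscle cells, 2 replicates of each cell type, taken from the raw counts by their labels. All 40012 gene entries without a copy suffix were used out of 42391, and 16078 had enough reads to be tested. C2C12 is an immortalized mouse myoblast line. Its control samples stood for 12 h in differentiation medium and were lysed 60 h after transfection. Before that they had grown in 10% fetal calf serum, and the siRNA was used at 50 nM (100 nM during an initial 5 h). The primary myoblasts grew out of minced hindlimb muscle of mice aged 5 weeks onto Matrigel, were plated briefly on collagen to remove fibroblasts, and were kept in 20% fetal calf serum, 10% horse serum, 2.5 ng/ml FGFb and 0.5% chicken embryo extract. They were lysed 48 h after transfection, and their label says proliferation. The genotype of all 4 samples is given as WT, and none received the Septin9 siRNA. Cell type, origin, medium and time after transfection all differ together between the groups and cannot be told apart. A line is 1 immortalized lineage and a primary culture is a mixture, so in these bulk samples fewer cells of a type and less RNA per cell cannot be told apart either.

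Skeletal myoblasts divide in rich serum and FGF, hold the factors Pax7, Myf5 and Myod1, and keep differentiation in check through Id proteins. On serum withdrawal they leave the cell cycle, switch on Myog and Mef2c, then make the sarcomere, the calcium release machinery and the fusogens with which they join into myotubes. Cyclin D and the kinase inhibitors that hold it back set the choice between the cycle and this exit. C2C12 cells are the usual line for following that course in culture.

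Between 20098123 and 25950883 reads were counted per control sample. Levels are given as CPM, the read count of a gene scaled to a common library size with TMM factors. The counts were tested with edgeR's quasi-likelihood test, and a gene is called where the adjusted p-value is under 0.05 and the fold change at least 1.5 in either direction. Fold changes are C2C12 over primary myoblasts throughout, so a negative value is higher in primary myoblasts. The methods speak of 2 independent experiments, but the labels do not say which samples came from separate animals, so p-values measure the spread between these samples. The median absolute log2 ratio over all genes was 0.251 between the C2C12 replicates, 0.232 between the primary replicates and 0.593 between the cell types.

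The primary cultures differed from each other in 2 ways that touch the results below. Ddx3y on the Y chromosome stood at 0 CPM in both C2C12 samples and in primary replicate 1, and at 75.3 CPM in primary replicate 2, while Xist stood at 530 and 0.0391 CPM in primary replicates 1 and 2 and at 841 and 1395 in C2C12. Reads from the Y chromosome were thus seen in primary replicate 2 alone, and that library nearly lacked Xist. Primary replicate 2 also held more of several fibroblast transcripts: Pdgfra read 1.09 and 33.3 CPM in primary replicates 1 and 2, Dcn 0.272 and 14, and Col1a1 7.2 and 261. Over the whole list of 14 fibroblast markers the summed level was 325 and 368 CPM in the primary replicates and 607 and 813 in C2C12, with Tcf21 at 0 in all 4. Such a sum is weighted towards the most abundant members. Of the 9 markers tested, 8 were higher in primary replicate 2 and 1 in primary replicate 1, with a median log2 ratio of 2.41. The median log2 fold change of the list between the cell types was 1.20, and 0.39 to 3.09 with a sample left out. The 10 endothelial markers summed to between 2.29 and 10.7 CPM, with Tie1 at 0, and the 12 immune markers to 9.7 and 10.5 CPM in C2C12 and 59.5 and 42.5 in primary myoblasts, of which Laptm5 alone made 52.7 and 34.3 while Adgre1, C1qa and Tyrobp were at 0. The 8 markers of the myogenic lineage summed to 1351 and 2047 CPM in C2C12 and 7352 and 4618 in primary myoblasts. The part of other cells and of sex in the results was not tested.

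Of the 16078 genes tested, 5264 were called (32.7%), of which 2462 were higher in C2C12 (15.3% of all tested) and 2802 higher in primary myoblasts (17.4%), with edgeR's test and Benjamini-Hochberg adjustment. The median log2 fold change of all genes was -0.01. The samples of the groups did not overlap in 75.0% of all genes. Large differences were more often on the side of the primary cells: 1150 called genes were at least 3 log2 units higher there and 416 at least 3 log2 units higher in C2C12. The calls lean on the C2C12 replicates: without C2C12 replicate 1, 1159 genes were called, and without C2C12 replicate 2, 0 of 16862 were called, although 5446 had an unadjusted p-value under 0.05 in the same edgeR fit. All called genes that could be tested in those fits kept their direction, 5253 of 5253 and 5237 of 5237. Those genes were picked as called from the same samples, so a kept direction was largely set in advance. The counts of list members given below rest on the same samples and are to be read against the 15.3% and 17.4% of all genes. Of the 48 sarcomere genes called, for instance, 5 were called without C2C12 replicate 1 and 0 without C2C12 replicate 2.

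The libraries with Septin9 siRNA give the same contrast in other libraries, but not in separate cultures: by library size, Ddx3y stood at 0 CPM in both libraries of primary replicate 1 and at 74.3 (control) and 69.1 (Septin9 siRNA) in those of primary replicate 2, and Col6a3 at 1.62 and 0.611 against 196 and 179. The overlap is therefore a description of related samples. There, 5121 of the 5124 called genes that were also tested had the same direction, and 4485 genes were called in both comparisons, which is 85.2% of the calls in control samples and 76.7% of the 5849 calls in Septin9 siRNA samples. The median of the sarcomere genes was -6.21 in control and -6.50 in Septin9 siRNA samples.

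**Figure D1:**
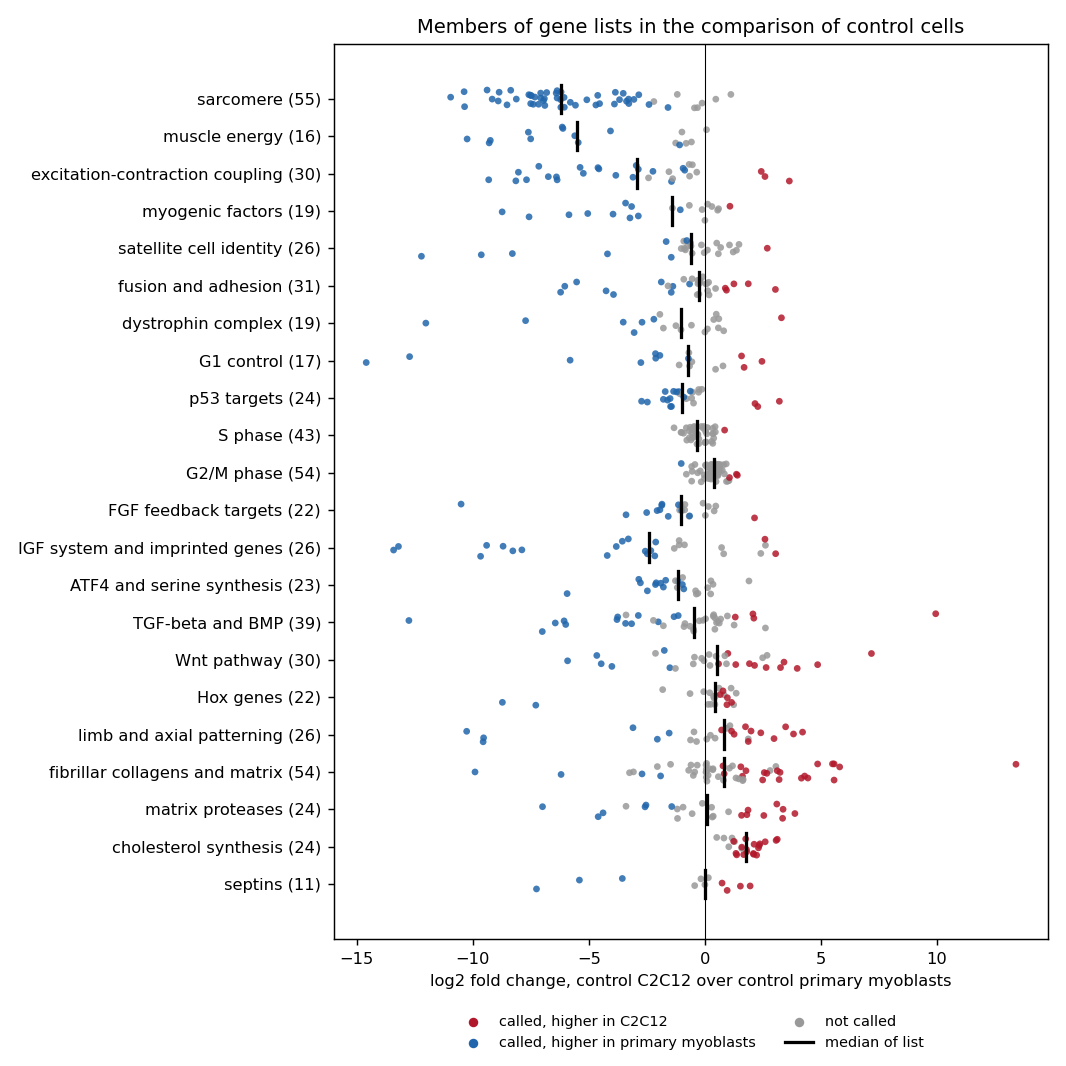
Each dot is a tested member of a gene list, placed by its log2 fold change of control C2C12 over control primary myoblasts, with red for called and higher in C2C12, blue for called and higher in primary myoblasts, grey for not called, and a black line at the list's median. The number in brackets is the count of tested members. The sarcomere list has its median at -6.21 and the cholesterol list at 1.78, while S phase lies at -0.32 and G2/M phase at 0.38.

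The sarcomere genes, which encode the contractile filaments, showed the largest difference of any list. All 58 members were in the table and 55 were tested. Of these, 48 were called higher in primary myoblasts and 0 in C2C12, against 17.4% and 15.3% of all genes, and the median was -6.21 log2 units. Myh3, the embryonic myosin heavy chain, read 3.7 and 10.1 CPM in C2C12 replicates 1 and 2 and 5293 and 1185 in primary replicates 1 and 2, a log2 fold change of -8.87 (SE 1.13, adjusted p = 0.00924 from edgeR's test). Acta1, skeletal alpha actin, read 7.68 and 18.6 CPM in C2C12 and 3528 and 938 in primary cells (-7.40, SE 0.96, adjusted p = 0.00947 from edgeR's test). Every primary sample lay far above every C2C12 sample for both genes, and the higher sample was replicate 1 of the primary cells and replicate 2 of the line.

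Other called members had the same direction. Myh8, the perinatal myosin, read 0.144 and 0.194 CPM against 557 and 148, with a log2 fold change of -10.96. Actn2, the Z-disc actinin, read 0.048 and 0.272 CPM against 341 and 126. The replicates of each group differed as well: over the list, the median log2 ratio of replicate 2 over replicate 1 was 0.66 in C2C12 and -1.48 in primary myoblasts. Both are smaller than the median difference between the cell types. The 7 tested members that were not called include the cardiac troponin Tnni3, at 1.58 and 3.18 CPM against 0.86 and 1.33, and Tpm1, a tropomyosin that non-muscle cells also use, at 1591 and 1630 CPM against 2366 and 2038. Mylpf, the fast regulatory light chain, read 3.46 and 11.2 CPM against 2085 and 549. It overlaps Septin1 on chromosome 7, whose values were nearly the same (4.99 and 12.2 against 2087 and 551), so that reads of these genes cannot be told apart.

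The sarcomere values go against the stage in the labels. The samples labelled as proliferating carry the higher level of 48 of the 55 sarcomere genes, and the samples labelled as 12 h into differentiation the lower level. Some genes described below run the way the labels say: Id1, Id2, Id3, Ccnd1 and Ccnd2 were higher in the samples labelled as proliferating, and Cdkn1b and Rbl2 in those labelled as 12 h into differentiation. Others run the way of the sarcomere genes: Myog, Mef2c, Mymk and Cdkn1a were higher in the samples labelled as proliferating. Few S phase and G2/M genes were called in either direction, and the medians of these lists were -0.32 and 0.38. Cell type, medium and time cannot be told apart here.

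**Figure D2:**
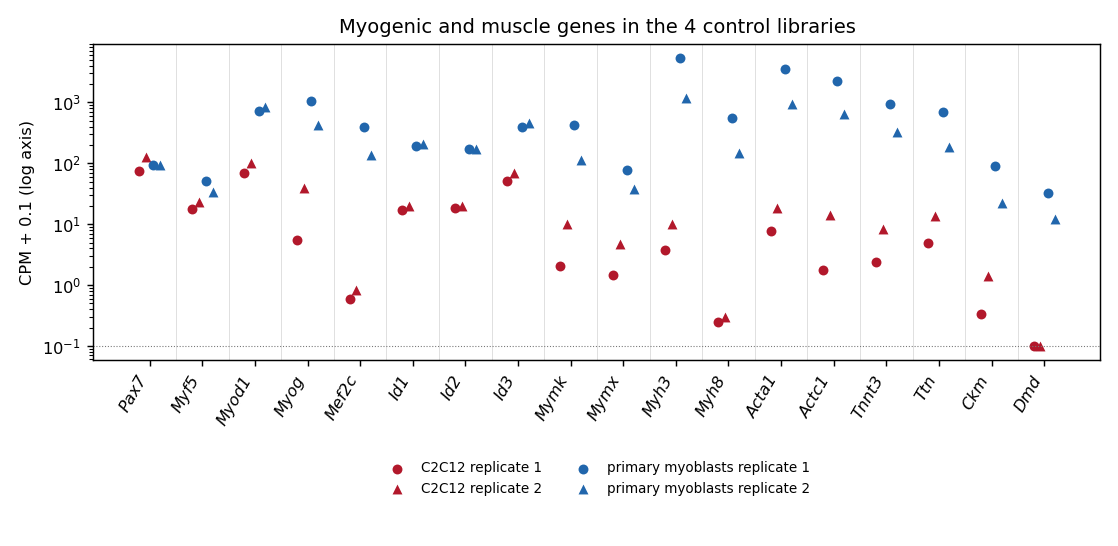
CPM plus 0.1 on a log axis for 18 genes in the 4 control libraries, red for C2C12, blue for primary myoblasts, circles for replicate 1 and triangles for replicate 2. Pax7 overlaps between the groups, while Myog, Mymk and the sarcomere genes lie far higher in both primary libraries, and Dmd sits on the dotted line of 0 CPM in both C2C12 libraries.

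The promoters of these genes are shown because the members move together. RefSeq gives a window from 250 bases before to 50 after the start for 44 of the 55 tested sarcomere genes, 55 windows in all. The E-box CAGCTG, read alike on both strands, was in 36.4% of them, 16.2% of the promoters of tested genes and 16.3% of all 32851 promoters. Each of its matches is also a match to the general E-box CANNTG, which 85.5%, 65.6% and 72.3% held. The CArG box, the binding motif of serum response factor, was in 14.5%, 1.4% and 1.63%. The sequence TATAAA, searched as well, was in 23.6%, 7.93% and 13.6%, so a raised share was not particular to the motifs shown. These are counts of letters, and a match is not a shown site. The Acta1 window lies at chr8:123894726-123895025 of GRCm38.p6 on the minus strand and holds 1 CArG box, in capitals.
Acta1: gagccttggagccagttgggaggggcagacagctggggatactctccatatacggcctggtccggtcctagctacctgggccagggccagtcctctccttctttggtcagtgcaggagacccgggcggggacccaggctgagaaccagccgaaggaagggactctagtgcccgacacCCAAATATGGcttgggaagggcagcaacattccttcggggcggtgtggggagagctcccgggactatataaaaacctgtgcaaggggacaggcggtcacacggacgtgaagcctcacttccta
The Myog window lies at chr1:134289754-134290053 on the plus strand. Its capitals are its 2 matches to CANNTG.
Myog: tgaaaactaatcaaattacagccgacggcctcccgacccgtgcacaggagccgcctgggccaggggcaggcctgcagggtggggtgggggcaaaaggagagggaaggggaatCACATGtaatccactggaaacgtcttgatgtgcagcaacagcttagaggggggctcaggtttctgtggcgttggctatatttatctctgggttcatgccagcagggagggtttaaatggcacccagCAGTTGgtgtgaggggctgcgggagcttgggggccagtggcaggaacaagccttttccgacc

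Among the myogenic factors 10 of 19 tested were called higher in primary myoblasts and 1 in C2C12 (median -1.40, or -0.73 without primary replicate 1). Myod1, which commits cells to muscle, read 68.8 and 99.7 CPM in C2C12 and 724 and 852 in primary cells, a log2 fold change of -3.23 (SE 0.25, adjusted p = 0.00472 from edgeR's test). Myog, which starts terminal differentiation, read 5.47 and 39.6 CPM against 1075 and 421 (-5.05, adjusted p = 0.0282 from edgeR's test), and Mef2c 0.48 and 0.738 against 397 and 135 (-8.74). Myf5 differed less, by -1.06 log2 units, from 17.6 and 23.1 CPM to 50.5 and 34.3. The Id proteins, which block the partners of Myod1, were also higher in primary cells. Id1 read 17.3 and 20 CPM in C2C12 and 193 and 208 in primary myoblasts, Id2 18.7 and 20.1 against 172 and 175, and Id3 51.1 and 68 against 401 and 468, with log2 fold changes of -3.42, -3.16 and -2.87. The replicates of the Id genes lay close together in both groups, unlike those of Myog. Tcf4, an E protein, was the called gene in C2C12, at 232 and 370 CPM against 163 and 121.

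Genes of satellite cell identity were mixed, with 7 of 26 called higher in primary myoblasts and 1 in C2C12. Pax7, the defining factor of the stem cell, read 75.3 and 127 CPM in C2C12 and 92.7 and 95.1 in primary cells, and the groups overlapped (0.11, SE 0.27, adjusted p = 0.779 from edgeR's test). Pax3, its paralog, was at 0 counts in both C2C12 samples and at 4.21 and 4.26 CPM in primary cells, at least 65.8-fold higher against a floor of 3 counts over the C2C12 group. Lbx1, a factor of migrating limb muscle precursors, was at 0 in C2C12 and at 25.4 and 25.1 CPM in primary cells. Nfix, which drives the switch from embryonic to fetal muscle genes, was the called gene in C2C12, at 785 and 784 CPM against 119 and 124 (2.69, SE 0.15, adjusted p = 0.00309 from edgeR's test). Itm2a, a membrane protein of muscle precursors, was read at 0.096 and 0.388 CPM against 108 and 56.1.

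The excitation-contraction genes differed in the same direction, with 20 of 30 called higher in primary myoblasts (median -2.92). Ryr1, the calcium release channel of skeletal muscle, read 3.55 and 11.3 CPM against 426 and 139, and Cacna1s, the voltage sensor, 0.24 and 0.777 against 213 and 67.8. Casq1, the calcium store protein, read 0.144 and 0.233 CPM against 186 and 67. Of the 3 members higher in C2C12, Ryr3 read 26.5 and 68.1 CPM against 6.11 and 1.52, and Kcnj2, an inward rectifier channel, 20.9 and 39.4 against 6.93 and 3.09. Chrna1, a subunit of the acetylcholine receptor, stood at a high level in both, 236 and 450 CPM against 2107 and 1143. Of the 16 muscle energy genes, 11 were called higher in primary cells and 0 in C2C12, among them Ckm, the muscle creatine kinase, at 0.24 and 1.32 CPM against 91.3 and 22.4, and myoglobin (Mb), at 0.24 and 0.35 against 271 and 100.

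Of the 31 tested fusion and adhesion genes, 9 were called higher in primary myoblasts (29%, against 17.4% of all genes) and 5 in C2C12 (16.1%, near the 15.3% of all genes). The fusogens Mymk and Mymx were among the first, Mymk at 1.92 and 9.79 CPM against 431 and 115 and Mymx at 1.34 and 4.58 against 78.3 and 37.4. Cdh11 read 4.27 and 5.71 CPM against 60.6 and 92.8, while the tetraspanin Cd9 was higher in the line, at 486 and 604 against 141 and 158. In the dystrophin complex 6 of 19 members were higher in primary cells and 1 in C2C12. Dmd, which encodes dystrophin on the X chromosome, had 0 counts in both C2C12 samples and 32.3 and 12.2 CPM in primary cells, at least 346-fold higher against the floor. Sgcd, delta-sarcoglycan, went the other way, at 66.1 and 58.7 CPM against 4.3 and 8.36, while Sgca read 7.39 and 16.5 CPM against 68.8 and 41.4.

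Of 17 G1 control genes tested, 8 were called higher in primary myoblasts (47.1%, against 17.4% of all genes) and 3 in C2C12 (17.6%, near the 15.3% of all genes). Cdkn2a, which encodes the tumour suppressors p16 and p19Arf, had 0 counts in both C2C12 samples and stood at 125 and 139 CPM in primary cells, at least 2047-fold higher, with the smallest adjusted p-value of the fit (0.00274 by edgeR's test). Cdkn2b, its neighbour, had 0 counts in C2C12 and stood at 33.2 and 38.8 CPM, at least 559-fold higher. Both lie on chromosome 4 of GRCm38.p6, Cdkn2a from 89274473 to 89294619 and Cdkn2b from 89306289 to 89311032. At lower coordinates, the nearest protein-coding gene with more than a few reads over the control samples is Mtap, from 89137370 to 89181090. It read 176 and 125 CPM in C2C12 and 180 and 236 in primary cells. At higher coordinates the nearest such gene is Elavl2, which had under 1 CPM in every sample. The noncoding Gm12610, which spans Cdkn2b, read 0 and 0.117 CPM in C2C12 and 0.679 and 0.703 in primary cells. In all 4 C2C12 libraries, those with Septin9 siRNA included, Cdkn2a and Cdkn2b had 0 counts.

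Cyclins and other inhibitors differed too. Ccnd2 read 6.91 and 6.87 CPM in C2C12 and 322 and 455 in primary cells (-5.81, SE 0.26, adjusted p = 0.00274 from edgeR's test), and Ccnd1 254 and 128 against 669 and 995. Cdkn1a, which encodes p21 and is a p53 target, read 142 and 145 CPM against 1225 and 716, though this gene has a further copy in the table. Cdkn1b (p27) and the pocket protein Rbl2 were higher in C2C12: Cdkn1b at 93.8 and 119 CPM against 33.1 and 32.9, and Rbl2 at 133 and 155 against 26.4 and 26. Rbl2, like Nfix above, lies on chromosome 8 between 80 and 100 Mb, where the median of all tested genes was itself above 1, as described below. Among the 24 p53 targets 13 were called higher in primary myoblasts and 3 in C2C12, for example Mdm2 at 83.5 and 73.6 CPM against 211 and 234, and Pmaip1 at 16.6 and 21.8 against 130 and 84.9. Sesn1 went the other way, at 72.7 and 116 against 10.8 and 9.65.

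Few genes of S phase and mitosis were called. Of 43 S phase genes 1 was called, higher in C2C12, and of 54 G2/M genes 3 higher in C2C12 and 1 in primary cells, with medians of -0.32 and 0.38. With a sample left out these medians ranged from -0.85 to 0.13 and from -0.07 to 0.72, so that their direction rests on single libraries. Top2a, for example, read 479 and 212 CPM in C2C12 and 269 and 319 in primary myoblasts, so the groups overlapped. The replicates of the line differed more than the cell types: all 43 S phase genes were higher in C2C12 replicate 1 than in replicate 2, by a median of 1.02 log2 units, and the same replicate had the lower Myog and sarcomere values.

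**Figure D3:**
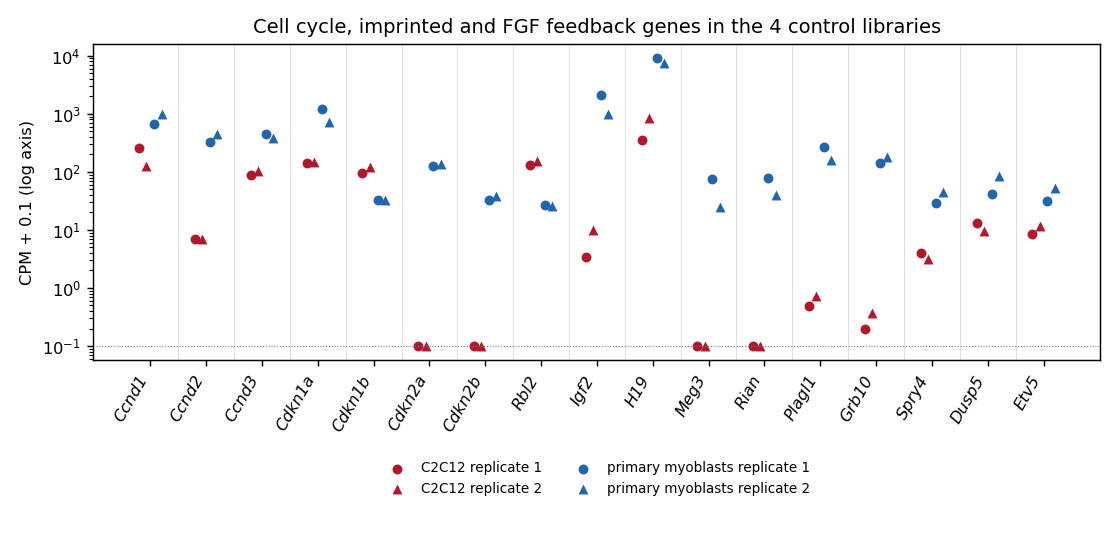
CPM plus 0.1 on a log axis for 17 cell cycle, imprinted and FGF feedback genes in the 4 control libraries, red for C2C12, blue for primary myoblasts, circles for replicate 1 and triangles for replicate 2. Cdkn2a, Cdkn2b, Meg3 and Rian sit on the dotted line of 0 CPM in both C2C12 libraries, whereas Cdkn1b and Rbl2 are the genes of this set that are higher in C2C12.

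The IGF system and the imprinted genes, the latter read from a single parental copy, act on growth. Of 26 tested, 16 were called higher in primary myoblasts (61.5%, against 17.4% of all genes) and 2 in C2C12, with a median of -2.40. Igf2, a fetal growth factor, read 3.31 and 9.75 CPM in C2C12 and 2145 and 982 in primary cells, and H19, its noncoding neighbour, 352 and 832 against 9038 and 7629. Grb10, an inhibitor of insulin receptor signalling, read 0.096 and 0.272 CPM against 140 and 181, and Plagl1, a zinc finger regulator of the imprinted network, 0.384 and 0.621 against 268 and 162. The genes higher in C2C12 were the binding proteins Igfbp5 (774 and 1860 CPM against 215 and 223) and Igfbp6 (168 and 153 against 19.5 and 19.3).

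An imprinted block was without reads in the line at all entries examined. It lies on chromosome 12, from Dlk1 at 109452485 to Mirg, which ends at 109749458. Entries with only a few counts over the control samples, and further copies, were not examined. The others had 0 counts in both C2C12 samples. Among them were Dlk1 (1.18 and 2.11 CPM in primary cells), Meg3 (75.9 and 24.8), Rtl1 (31.5 and 6.45), Rian (77 and 39.3) and Mirg (5.3 and 1.91). Meg3 was at least 781-fold and Rian at least 902-fold higher in primary cells. The genes on either side were read in both cell types, Begain at 0.864 and 0.583 CPM against 0.453 and 0.547, and Ppp2r5c at 110 and 116 against 97.8 and 108. Meg3, Rian and Dlk1 have further copies in the table, so their levels are uncertain, and Rtl1 overlaps Meg3 and Rian, so reads of these genes cannot be told apart. In the Septin9 siRNA libraries of C2C12 Meg3, Rian and Dlk1 also had 0 counts.

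FGF feedback targets are induced by FGF and ERK signalling, and some of them, such as Spry4 and Dusp5, limit it. Of 22 tested, 11 were called higher in primary myoblasts (50%, against 17.4% of all genes), 10 were not called and 1 was higher in C2C12 (median -1.01). Spry4 read 3.94 and 3.03 CPM against 29.2 and 44.1 (-3.40, SE 0.31, adjusted p = 0.00537 from edgeR's test), Dusp5 13 and 9.4 against 42 and 85.4, and Etv5 8.26 and 11.7 against 31 and 52.4. Il17rd, another inhibitor of the same pathway, went the other way at 24.4 and 47.7 against 8.7 and 7.66. Of 23 genes of the ATF4 response to amino acid shortage, 12 were called higher in primary cells and 0 in C2C12, among them Trib3 at 1.25 and 1.17 CPM against 9.19 and 8.32 and Mthfd2 at 41.2 and 18.4 against 134 and 122.

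Matrix genes were more often higher in C2C12. Of 54 tested, 20 were called higher in C2C12 and 4 in primary myoblasts, with a median of 0.81, against 15.3% and 17.4% of all genes. Col12a1, a fibril-associated collagen, read 696 and 1166 CPM in C2C12 and 37.4 and 57 in primary cells (4.30, SE 0.38, adjusted p = 0.00537 from edgeR's test), and Col6a1 373 and 574 against 13.8 and 29.7. Prelp, a small leucine-rich proteoglycan, read 34.1 and 81 CPM in C2C12 and had 0 counts in both primary samples, at least 915-fold higher against the floor. Ogn, a proteoglycan of the same family, read 1373 and 4497 CPM against 163 and 39.7. Lama2, a laminin chain of the muscle basement membrane, and Col25a1 went the other way, Lama2 at 6.91 and 12.1 against 72.5 and 52.3, and Col25a1 at 0 and 0.0777 against 65.7 and 26.8.

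The primary replicates decided several matrix values. Col1a1 read 110 and 104 CPM in C2C12 and 7.2 and 261 in primary replicates 1 and 2, and Col6a3 314 and 318 against 1.68 and 199, so neither was called. Without primary replicate 2 the median of the matrix list was 2.15 in place of 0.81, and the log2 fold change of Col1a1 3.91 in place of -0.33. In that fit primary replicate 1 stood alone for the primary cells, so their spread was not measured. Of the 54 matrix genes, 43 were higher in primary replicate 2 than in replicate 1, in the direction of the fibroblast transcripts named above. The part of fibroblasts in this was not tested.

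Signals that shape patterning and the matrix also differed. Of 39 TGF-beta and BMP genes 13 were called higher in primary myoblasts (33.3%, against 17.4% of all genes) and 4 in C2C12 (10.3%, against 15.3%). Their median was -0.49, and 0.13 without primary replicate 2. Bmp4 read 48.9 and 85.8 CPM in C2C12 and 0 and 0.117 in primary cells, with 3 counts in all, and the ratio was 1101 with a 95% counting interval of 376 to 5340. Mstn, which encodes myostatin, had 0 counts in C2C12 and read 67.2 and 6.37 CPM in the primary replicates, which lay far apart. Of 30 Wnt genes 11 were called higher in C2C12 (36.7%, against 15.3% of all genes) and 6 in primary cells (20%, near the 17.4% of all genes). The ligand Wnt10a read 47.5 and 27.4 CPM against 0.317 and 0.195, and the ligand Wnt7b 1.82 and 1.32 against 20.4 and 30.3. Of 22 Hox genes tested, 5 were called higher in C2C12 (22.7%, against 15.3% of all genes) and 2 in primary cells (9.09%, against 17.4%), and the latter were Hoxd8, at 0 counts against 2.35 and 2.15 CPM, and Hoxd9, at 0 counts against 0.589 and 1.05. Limb and axial factors split, 11 of 26 called higher in C2C12 (42.3%) and 6 in primary cells (23.1%). Lhx9 read 17.6 and 17.1 CPM against 1.54 and 1.56, and Emx2 0 against 8.15 and 4.92.

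**Figure D4:**
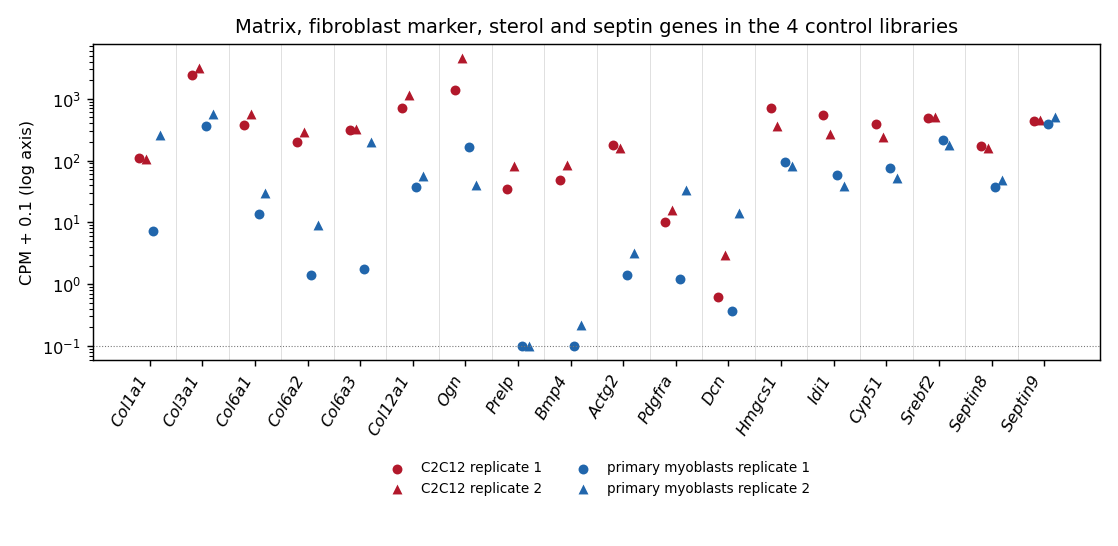
CPM plus 0.1 on a log axis for 18 genes, mostly of the matrix, sterol synthesis and the septins, in the 4 control libraries, red for C2C12, blue for primary myoblasts, circles for replicate 1 and triangles for replicate 2. Pdgfra, Dcn, Col1a1 and Col6a3 separate the primary replicates from each other, while Prelp, Col12a1 and Idi1 separate the cell types.

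Cholesterol synthesis was the list with the highest share on the side of C2C12. Of 24 tested, 18 were called higher in C2C12 and 0 in primary myoblasts, with a median of 1.78. Without primary replicate 2, 10 members were called. Hmgcs1, which makes the first committed precursor, read 707 and 368 CPM in C2C12 and 95.3 and 81.4 in primary cells (2.60, SE 0.36, adjusted p = 0.0104 from edgeR's test), and Idi1 540 and 266 against 57.6 and 38.6. Srebf2, the factor that switches the pathway on, read 496 and 498 CPM against 216 and 175, and its replicates lay close together. For the enzymes C2C12 replicate 1 was the higher one, by a median of 0.91 log2 units over the list. The Hmgcs1 promoter, at chr13:119690101-119690400 of GRCm38.p6 on the plus strand, is shown for the sterol element TCACCCCAC, searched on both strands and shown in capitals. Of all promoters 0.551% hold this element, and of the promoters of tested genes 0.581%. It was found in 1 of 19 promoters of the tested list.
Hmgcs1: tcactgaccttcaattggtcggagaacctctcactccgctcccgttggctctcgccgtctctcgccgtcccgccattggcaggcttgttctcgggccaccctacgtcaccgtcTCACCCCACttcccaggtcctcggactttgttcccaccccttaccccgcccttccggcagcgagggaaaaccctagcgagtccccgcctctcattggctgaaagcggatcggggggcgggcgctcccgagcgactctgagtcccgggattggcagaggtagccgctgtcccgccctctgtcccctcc

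The septins are cytoskeletal GTPases, and Septin9 is the member the study depletes in its other samples. In the controls Septin9 read 432 and 459 CPM in C2C12 and 396 and 497 in primary cells, and the groups overlapped (-0.00, SE 0.17, adjusted p = 0.993 from edgeR's test). Septin2, at 427 and 506 CPM against 426 and 413, Septin7, at 313 and 331 against 339 and 384, and Septin11, at 381 and 411 against 547 and 528, were not called either. Septin8 was 1.95 log2 units higher in C2C12, at 172 and 161 CPM against 37.3 and 49.2, and Septin5, Septin6 and Septin10 were higher there by 1.53, 0.96 and 0.74, of which Septin5 has a further copy in the table, as has Septin4. Septin3 and Septin4 were higher in primary cells at low levels, 2.58 and 1.64 CPM and 1.72 and 0.547 CPM, and Septin1 is the gene that overlaps Mylpf.

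The genes with the largest differences outside these lists, among those with at least 10 CPM in both samples of the higher group, mostly had few or no reads in the other cell type. Genes with the name of a predicted model (Gm number, Rik or LOC) were left out of this ranking. Among them were LOC100044068, at 62.6 and 89.6 CPM in C2C12 against 0 counts (at least 1209-fold), and LOC115489115, at 53.9 and 10.9 CPM in primary cells against 0 counts (at least 503-fold). Higher in C2C12 were Spon2, a secreted matrix protein, at 48.6 and 99.7 CPM against 0.136 and 0, Krt14, a keratin, at 21.5 and 19.4 against 0.0453 and 0.0391, and Brinp3 at 105 and 113 against 0 and 0.469. Higher in primary cells were the neuropeptide Gal, at 95.8 and 77.6 CPM against 0 counts (at least 1346-fold), the hormone Sct, at 68.9 and 100 against 0 counts (at least 1314-fold), and Grik3, a glutamate receptor subunit, at 63.5 and 47.2 against 0 counts (at least 860-fold). The same rule gave Prelp, Bmp4, Runx3, H2-Q2, Apol10b, Cbr2 and Omd among the 10 genes higher in C2C12 and Cdkn2a, Cdkn2b, Rian, Meg3, Shroom2, Galnt17 and Tox2 among the 10 higher in primary cells, of which Runx3, H2-Q2, Rian and Meg3 have further copies in the table and are uncertain. In all, 166 genes had 0 counts in both C2C12 samples and at least 1 CPM in both primary samples, and 33 genes the reverse. Of the 166 genes, 114 had 0 counts in both C2C12 libraries with Septin9 siRNA as well.

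Among the autosomes and X, the medians of 2 chromosomes stood apart. On chromosome 15 the median log2 fold change of 657 tested genes was 0.42, with 30.4% called higher in C2C12 and 9.74% higher in primary myoblasts, against 15.3% and 17.4% of all genes. On chromosome 7 the median of 1188 genes was -0.31, with 7.58% and 25.5%. The other 18 chromosomes, autosomes and X, had medians between -0.13 and 0.11. The 24 tested entries of the mitochondrial genome had a median of -0.31. The Septin9 siRNA samples gave 0.44 on chromosome 15 and -0.28 on chromosome 7. These chromosomes were picked after their values were seen, and no test was run on them.

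In windows of 10 Mb with at least 20 tested genes, 218 of 232 medians lay within 0.5 of 0 and 3 lay above 1. Both windows from 80 to 100 Mb of chromosome 8 had a median above 1, at 1.12 over 101 genes and 1.14 over 63 genes, with 65 and 39 called higher in C2C12 and 6 and 4 higher in primary myoblasts. The median log2 ratios of replicate 2 over replicate 1 in these windows were between -0.04 and 0.02. The windows as a whole were thus not shifted between the replicates of a cell type. These medians do not measure the spread of single genes, and Mmp2, for example, read 8.7 and 50 CPM in primary replicates 1 and 2. The same windows gave 1.15 and 1.11 in the Septin9 siRNA samples. From 120 to 130 Mb of the same chromosome the median was -0.63 over 111 genes. The other window above 1 was chromosome 15 from 0 to 10 Mb, at 1.04 over 35 genes (0.74 in the Septin9 siRNA samples). The lowest medians were -0.86 over 71 genes on X from 130 to 140 Mb and -0.76 over 26 genes on chromosome 14 from 0 to 10 Mb. In the Septin9 siRNA samples these were -0.89 and -0.42. These windows too were picked after their values were seen.

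**Figure D5:**
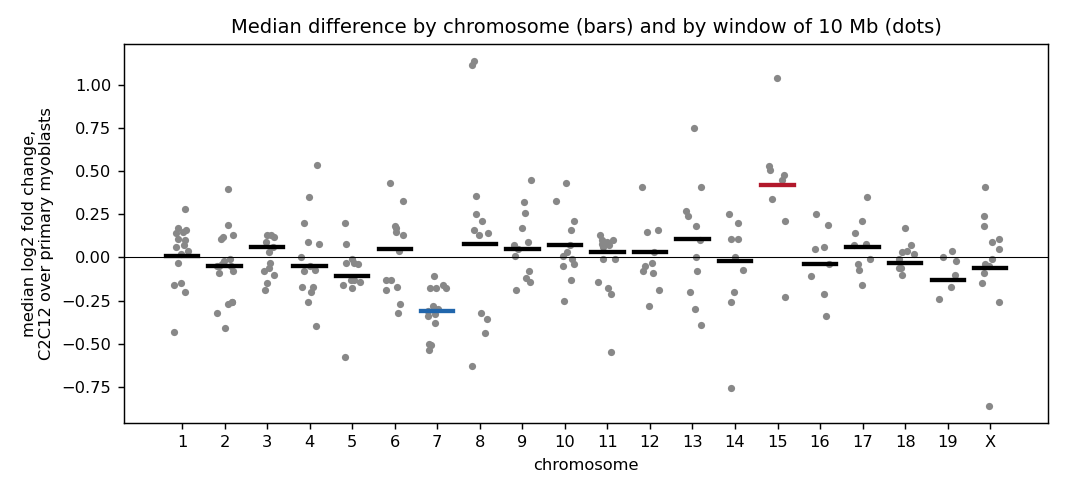
Median log2 fold change of control C2C12 over control primary myoblasts, as a short horizontal bar for each chromosome (red for chromosome 15, blue for chromosome 7) and a dot for each window of 10 Mb with at least 20 tested genes. Chromosome 15 lies at 0.42 and chromosome 7 at -0.31, and a pair of windows on chromosome 8 lies above 1.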

How the data were processed

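Poly(A) RNA of the 8 samples was sequenced in paired-end reads. The authors mapped the reads to GRCm38.p6 with STAR 2.7.2 and counted them per gene with featureCounts 2.0.1, and the deposited counts are raw and not normalized. Whether strand was used in counting is not given in the sources used here. The deposited normalized tables, corrected for batch and scaled within each cell type, were not used. The 16 broken lines, which belong to 5 long genes such as Neb and Dst, were left out, as were 2379 further copies, which hold between 4.42 and 5.42% of the counts. All columns with values were assigned to a sample. Gene positions and promoters are from RefSeq on GRCm38.p6.

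The 4 control samples were fitted in R 4.3.3 with edgeR 4.0.16 (filterByExpr, TMM, quasi-likelihood test, Benjamini-Hochberg adjustment), without a block for the replicate number. CPM are scaled by TMM, and each standard error was derived from the estimate and its quasi-likelihood F value. Gene lists were described by counts and medians, and the members and lists were chosen with earlier results of these data known. Genes named are list members by role, the called members with the largest fold changes, and all septins tested. Added to these are the 10 genes with the largest fold changes in each direction. They were ranked among called genes with at least 10 CPM in both samples of the higher group, leaving out names of predicted models (Gm number, Rik or LOC). A fold against a group with 0 counts is a bound, set at 3 counts over that group, and covers counting error only. The list of mitochondrially encoded genes matched no gene name in the counts and is not described as a list. Mitochondrial entries with enough reads were nevertheless part of the fit. Alternatives were RLE factors, library size alone, other filters on low counts, DESeq2 1.42.0, limma-voom (limma 3.58.1), all 8 samples in one fit, a replicate block, other call rules, further copies kept, the Septin9 siRNA samples, and each sample left out in turn. The fit was tested on simulated data with 200 of 15750 genes changed. The changed genes were all well read, and each gene was given the spread typical of its level. There the fit called 32% of the genes given an absolute log2 fold change of 1 and 100% of those given 3. Of its calls, 2.94% were false. In the real data far more genes differ and the spread is uneven, so these shares are not error rates of this comparison. A gene that was not called can therefore still differ. Lists, positions and promoters were handled in Python 3.11.15 (pandas 2.3.3, numpy 2.4.6), intervals came from scipy 1.17.1, and plots were drawn by matplotlib 3.10.9.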

Additional observations from a re-analysis of the deposited data

How the results depend on the processing

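With 2 samples a group, the calls rest on single libraries. Leaving out each sample in turn gave 0 to 4368 called genes, of which 0 to 1993 were higher in C2C12 and 0 to 2375 higher in primary myoblasts. The lowest value each time came without C2C12 replicate 2, where edgeR still gave 5446 genes an unadjusted p-value under 0.05. Called members then ranged from 0 to 12 for myogenic factors, 0 to 50 for the sarcomere, 0 to 11 for G1 control, 0 to 20 for the IGF system and imprinted genes, 0 to 35 for the matrix and 0 to 14 for cholesterol synthesis. Medians ranged from -1.86 to -0.73 for myogenic factors, 0.62 to 2.15 for the matrix, -1.28 to 1.69 for chemokines and cytokines and -0.75 to 0.43 for pericyte markers. In these fits a lone sample is assumed to vary like the other group.

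A test against the fold change threshold itself called 3020 genes (1257 higher in C2C12, 1763 higher in primary myoblasts), an adjusted p-value under 0.01 left 1181 (502 and 679), and a minimum of 10 counts in every sample left 1813 higher in primary myoblasts beside 1952 higher in C2C12. That filter removes genes near 0 in 1 cell type. Of the called genes, 46.8% were higher in C2C12 in the main analysis, 51.5% with library size alone and 52.5% without C2C12 replicate 1, so the side with more calls depends on these choices. The other normalizations, DESeq2, limma-voom, all 8 samples in one fit, no filter and further copies kept gave between 5246 and 6417 calls. All called genes that these alternatives tested kept their direction, and in the Septin9 siRNA samples 5121 of 5124 did. The alternatives reuse the samples that gave the calls, so a kept direction there was largely set in advance.

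Replicate numbers did not pair the samples across cell types: the deviations of same-numbered samples correlated at -0.144 over 16078 genes. With a replicate block 3978 genes were called, and with crossed numbers, an alternative chosen after seeing the data, 5900.

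Among the named genes, those that changed sign were not called in the main analysis. Col1a1 was 1.25 with limma-voom, 1.24 with the replicate block, 1.21 with crossed numbers and -1.26 to 3.91 with a sample left out. Pdgfra was 0.96, 0.85 and 0.77 in those fits and Ccl2 0.55, 0.21 and 0.11. Septin9 was 0.06 with library size alone and 0.01 with limma-voom, all 8 samples and both blocks, and the immune marker median was 0.45 in the Septin9 siRNA samples. With a sample left out, Pax7 ranged from -0.30 to 0.45, Top2a from -0.46 to 0.72, Septin9 from -0.14 to 0.19, Pdgfra from -1.35 to 3.58, Dcn from -3.74 to 2.65 and Ccl2 from -2.50 to 4.10. Of 492 list medians under the alternatives, 11 in 10 of 41 lists had the opposite sign, 10 of them with a sample left out. They include long lists: with a sample left out, S phase ranged from -0.85 to 0.13, G2/M phase from -0.07 to 0.72, TGF-beta and BMP from -0.59 to 0.13, interferon and antigen presentation from -0.08 to 0.96, matrix proteases from -0.20 to 0.34, growth factor receptors from -0.47 to 0.02 and FoxO targets from -0.02 to 0.28. The cause of these changes was not tested.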

Other observations

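Counts for further groups are given here beside the 15.3% of all genes called higher in C2C12 and the 17.4% called higher in primary myoblasts. Of 28 tested genes of interferon response and antigen presentation, 8 were called higher in C2C12 (28.6%) and 3 in primary myoblasts (10.7%) with edgeR's test. Stat2, which carries the interferon signal, read 33 and 29.2 CPM in C2C12 replicates 1 and 2, against 9.24 and 8.13 in primary replicates 1 and 2. Rsad2, an interferon-induced antiviral gene, had 0 counts in C2C12 and read 1.36 and 3.36 CPM in primary cells. Of 20 targets of serum response factor and smooth muscle genes, 5 were called higher in C2C12 (25%) and 2 in primary cells (10%), and Actg2, smooth muscle gamma actin, read 179 and 162 CPM against 1.31 and 3.09.

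Of 18 genes of fatty acid synthesis and storage, 6 were called higher in C2C12 (33.3%), among them the desaturase Scd1 at 321 and 287 CPM against 64 and 37.1. The 3 called higher in primary cells (16.7%, near the share of all genes) included Cd36, a fatty acid carrier, at 0.096 and 0.117 CPM against 22.4 and 12, and Lpl, lipoprotein lipase, at 2.02 and 2.1 against 29.3 and 23.6. Ndrg1, a hypoxia target, read 214 and 281 CPM in C2C12 and 10.1 and 10.2 in primary cells, while Egln3, another target, read 67.9 and 67.4 against 146 and 142. All 15 tested chemokines and cytokines were higher in primary replicate 2 than in primary replicate 1, for example Ccl2 at 0.408 and 40.2 CPM in replicates 1 and 2, and 2 of the 15, Hgf and Tnfsf12, were called, both higher in C2C12.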
